A study of Homo sapiens with 60 samples.

Results

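The 1321N1 cell line, which derives from an astrocytoma, was exposed to cadmium or to mercury for 1.5 h, and the RNA of both exposures was compared directly. The comparison took in 6 of the 60 libraries of the time course, namely the 3 titled for cadmium and the 3 titled for mercury at the first time point, and all genes with enough counts. Cells received 2.3 µM cadmium chloride or 20 µM mercury chloride in DMEM with serum, and each concentration had been set by the authors to kill the same share of cells over a longer exposure. The other libraries were of cells left non-treated or given arsenic, and of 3, 6, 12, and 24 h. They entered the same model, and the non-treated and arsenic libraries of 1.5 h are given beside the results for orientation. The labels describe the triplicates as technical, so that p-values may cover only the spread between wells and not that between independent cultures. 1321N1 is a single tumor-derived line, not primary tissue.

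Cadmium and mercury are thiol-binding metals, and cells answer them through a few well-studied routes. The transcription factor MTF1 senses free zinc and, through zinc displaced by other metals, drives metallothioneins and the zinc exporter SLC30A1. Damaged proteins release HSF1, which induces heat-shock proteins, oxidized KEAP1 releases NRF2, which induces HMOX1 and other protective enzymes, and blocked translation initiation favors ATF4 and its targets. Immediate-early genes such as EGR1, FOS, and JUN are switched on by kinase cascades without new protein synthesis and are usually the earliest transcripts to move.

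Reads came from the 3′ end of polyadenylated transcripts, so that counts do not grow with gene length, and levels are given as CPM, counts scaled to a common library size. The 6 libraries held 3552240 to 4140309 counts, and 12341 genes were tested. Replicates of a group correlated at 0.9739 to 0.977 across genes, and libraries of different groups at 0.9677 to 0.9745. Genes made in the mitochondrion took 5.82 to 6.58% of the counts with cadmium and 6.53 to 7.3% with mercury, and their part in the results was not tested. Of the 13 astrocyte markers, VIM, CD44, SOX9, GJA1 (12.3 to 28.5 CPM over the 12 libraries of 1.5 h), and GLUL (16.8 to 28.4 CPM) were present, whereas GFAP had at most 1 count in a library and S100B, AQP4, and ALDH1L1 had 0 counts. NES was low, at 2.67 to 5.52 CPM, and SLC1A2, SLC1A3, and ALDOC had at most 0.697, 2.46, and 0.8 CPM. The endothelial markers had 0 counts, and the summed markers of microglia and oligodendrocytes did not pass 2.21 CPM in any of the 6 libraries. The neuronal markers summed to 7.59 to 11.5 CPM, nearly all of it SYT1, and the 4 epithelial markers, led by KRT18, to 66.3 to 73.9 CPM with cadmium and 50.8 to 85.9 CPM with mercury.

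Mercury and cadmium already differed after 1.5 h, and most of the difference lay in genes that were higher with mercury. At an adjusted p under 0.05 in edgeR's quasi-likelihood test, 66 genes (0.535% of those tested) were higher with mercury than with cadmium and 15 (0.122%) were lower. The log2 fold change of mercury over cadmium (LFC) exceeded 1 for 20 of the former (0.162%) and fell below -1 for 10 of the latter (0.081%). The median LFC was 0.81 for the 66 genes and -1.50 for the 15, against -0.02 over all genes tested. The 3 values with mercury did not overlap the 3 with cadmium for any of the 81 genes, as was also true of 18.9% of all genes tested. Of the 66 genes, 36 belonged to the gene lists of stress and signaling pathways examined here, and of the 15, none did. Of the 15, 8 encoded replication-dependent histones. The lists were chosen with earlier results of these data known, and the share of all tested genes on them was not computed. These counts are a description.

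**Figure D1:**
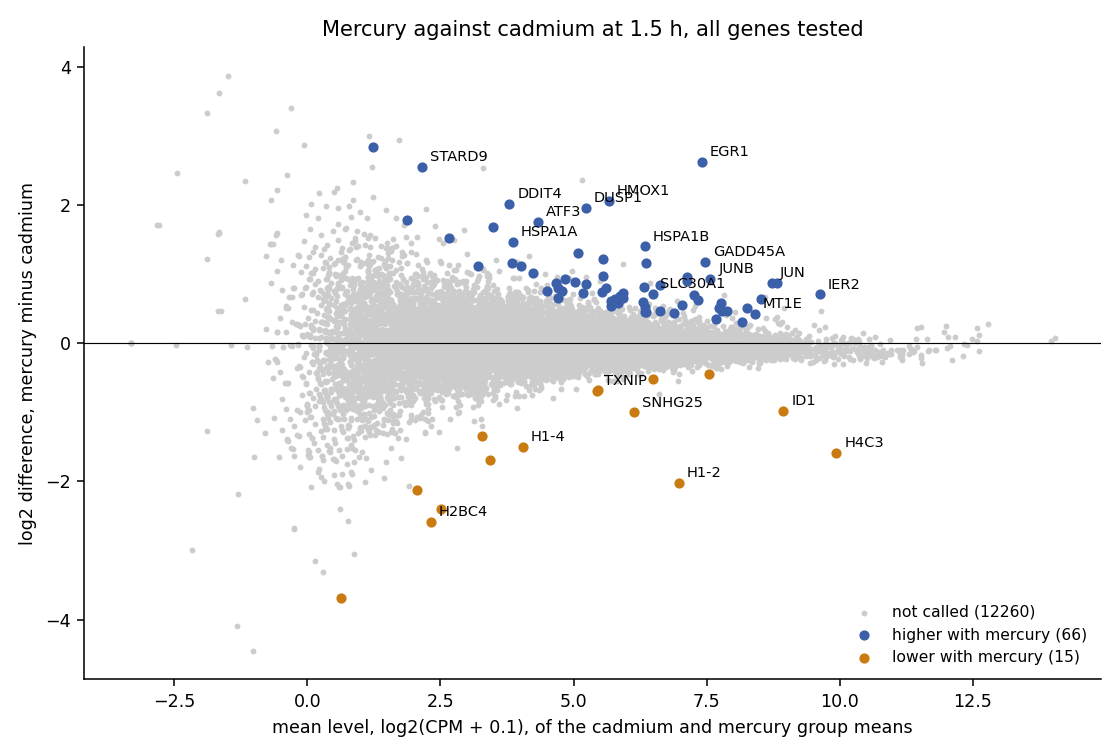
Each of the 12341 genes tested is plotted by its mean level (x axis, log2 of CPM plus 0.1) and its log2 difference, mercury minus cadmium, at 1.5 h (y axis). The 66 genes higher with mercury are in blue and the 15 lower genes in orange. EGR1 stands out above and H4C3 and H1-2 below among well-expressed genes.

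These numbers depended on the fit and on single libraries. When only the 6 libraries were fitted, 232 genes were higher and 109 lower with mercury. Without cadmium replicate 3, 40 genes were higher and 8 lower with mercury, and without mercury replicate 3, 7 were lower. Of the 81 genes, 32 were called in each of the 6 fits that left out 1 of these libraries, and the LFC kept its sign in all 6 fits for 81 of 81. The sign could hardly have changed, since the mercury and cadmium values did not overlap for any of these genes.

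Relative to the non-treated cells of 1.5 h, more genes passed with mercury than with cadmium. Mercury raised 59 genes (0.478%) and lowered 11 (0.0891%). Cadmium raised 0 genes (0%) and lowered 0 (0%) in edgeR, where 991 genes had an unadjusted p under 0.05, and 4 genes were called by DESeq2. The count with cadmium depended on the fit, with 42 genes when only the 12 libraries of 1.5 h were used and 66 without a filter on low counts. All 66 genes that were higher with mercury than with cadmium had a positive LFC of mercury over non-treated cells, and 39 of them were called. Against the same non-treated libraries, cadmium gave these genes a positive LFC in 25 cases and a negative one in 41, with a median of -0.07. The 15 lower genes all had a negative LFC of mercury over non-treated cells, 8 of them called, and a median of 0.12 with cadmium. Both comparisons use the same 3 non-treated libraries, and the 81 genes were chosen on the mercury and cadmium libraries, so these counts are a description.

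Immediate-early genes formed the largest group. Of 32 members tested, 14 were higher with mercury, none was lower, and 29 had a positive LFC, with a median of 0.56 against -0.02 over all genes. The shares called over all genes tested, for this list and those below, were 0.535% higher and 0.122% lower. The share of all genes with a positive LFC is not given here. The group includes transcription factors of the EGR, AP-1, and KLF families and secreted CCN proteins. EGR1, a zinc-finger transcription factor on chromosome 5 from 138465479 to 138469303 (GRCh38), had 46.1, 60.6, and 34.9 CPM in the cadmium libraries and 297, 283, and 295 CPM in the mercury libraries. Every mercury library thus lay far above every cadmium library, and 2 of the 3 cadmium libraries lay above the 29.0 to 35.4 CPM of non-treated cells (LFC of cadmium over non-treated cells 0.51, adjusted p = 0.537). The LFC was 2.63 (standard error 0.18, adjusted p = 3.92e-18), the largest positive value among called genes not given by counts.

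The AP-1 subunits moved less but with little spread. JUN had 290.4, 296, and 310.4 CPM with cadmium and 548, 533, and 567 CPM with mercury (LFC 0.88, standard error 0.08, adjusted p = 1.03e-12). JUNB had 135, 123, and 134 CPM with cadmium and 247, 234, and 270.0 CPM with mercury (LFC 0.94, standard error 0.11, adjusted p = 1.88e-08). For both genes the mercury values lay apart from the cadmium values by more than the range within either group. FOS, the partner of JUN, was too low for a fold, with 2, 2, and 1 counts with cadmium and 9, 20, and 15 counts with mercury (adjusted p = 0.148). ATF3, a stress-induced member of the ATF/CREB family that is also an ATF4 target, had 7.87, 12.2, and 7.28 CPM with cadmium and 23.5, 35.5, and 33.7 CPM with mercury (LFC 1.76, standard error 0.26, adjusted p = 2.11e-06). Its lowest mercury library was above its highest cadmium library.

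Other members of the group differed by smaller or less certain amounts. IER2, a nuclear regulator that was the most abundant of the called members, had 574 to 625 CPM with cadmium and 955 to 1003 CPM with mercury (LFC 0.71, adjusted p = 2.16e-07). CSRNP1, an AXIN1-induced nuclear protein, had 16.3 to 22.7 CPM with cadmium and 47.1 to 50.2 CPM with mercury (LFC 1.32, adjusted p = 0.00148). The matricellular proteins CCN1 and CCN2, which are also targets of YAP and SRF, had LFCs of 0.87 (adjusted p = 6.73e-05) and 0.90 (adjusted p = 0.000518), and were the only 2 of 20 tested members of the YAP and SRF list to be called. The list's median was 0.07. MYC, a growth-promoting transcription factor, had 4.43 to 5.62 CPM with cadmium and 14.4 to 21.1 CPM with mercury (LFC 1.68, adjusted p = 0.0343). The groups did not overlap, yet the MYC call was lost in DESeq2 and in 5 of 6 leave-one-out fits (adjusted p up to 0.245). It was kept without mercury replicate 2. Over non-treated cells (5.57 to 10.2 CPM), the LFC of MYC was 0.95 with mercury (adjusted p = 0.759) and -0.74 with cadmium (adjusted p = 0.709).

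**Figure D2:**
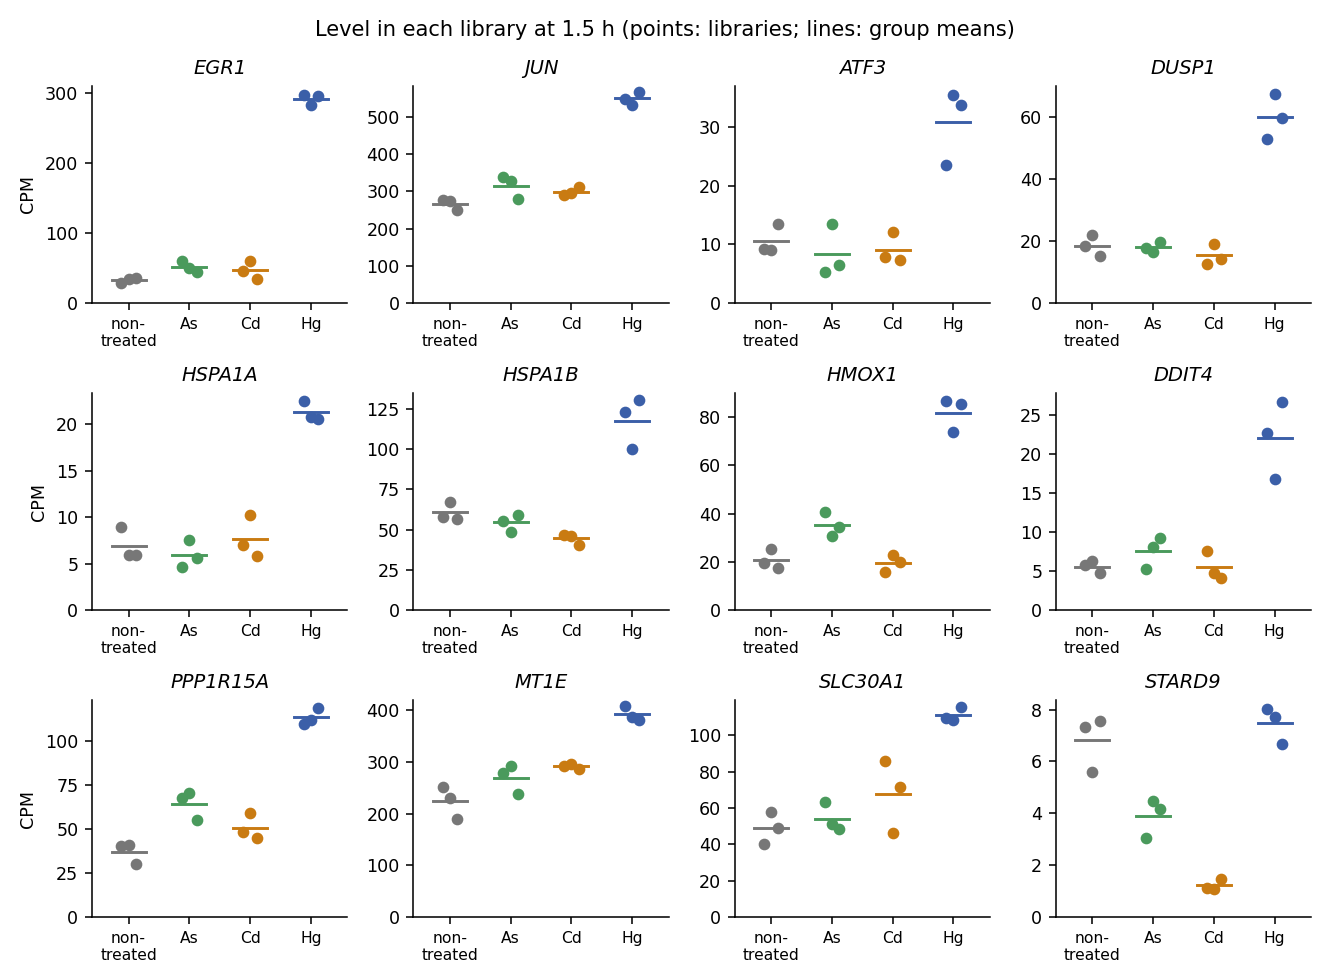
Level in CPM (y axes, from 0) of 12 genes in each of the 3 non-treated, arsenic, cadmium, and mercury libraries of 1.5 h, with points for libraries and lines for group means. For EGR1, JUN, DUSP1, and HMOX1 the mercury libraries stand alone, for SLC30A1 cadmium replicate 2 lies near the non-treated libraries, and for STARD9 the cadmium libraries are low.

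The feedback inhibitors that these same kinase cascades induce also differed. Of 18 tested, 3 were higher with mercury and none lower, with a median LFC of 0.30. DUSP1, a phosphatase that switches off stress-activated MAP kinases, had 12.6, 19.1, and 14.3 CPM with cadmium and 53, 67.2, and 59.6 CPM with mercury (LFC 1.96, standard error 0.27, adjusted p = 4.44e-07). The 3 mercury libraries were well clear of the cadmium libraries, of which 1 lay within and 2 below the non-treated range of 15.1 to 22 CPM. ERRFI1, an inhibitor of the EGF receptor, had 24.8 to 32.9 CPM with cadmium and 62.0 to 73.5 CPM with mercury (LFC 1.22, adjusted p = 3.51e-05). For DUSP5, a nuclear phosphatase of ERK, the values were 26.1 to 35.7 CPM and 52.3 to 79.7 CPM (LFC 0.97, adjusted p = 0.000463), and the call was lost without mercury replicate 3 (adjusted p = 0.0584). HBEGF, a ligand of the EGF receptor named after its values were seen, had 93.6 to 96.4 CPM with cadmium and 167 to 207 CPM with mercury (LFC 0.96, adjusted p = 2.16e-07).

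The upstream 250 bases of EGR1 and DUSP1 are shown because they hold the classical response elements for which these genes are known. The sequences are RefSeq promoters of GRCh38.p14, written along the gene. For EGR1 (chr5:138465229-138465478, plus strand), capitals mark 2 CArG boxes, the site of serum response factor, at -105 and -83 from the start of transcription. For DUSP1 (chr5:172771196-172771445, minus strand), capitals mark the full cyclic AMP response element TGACGTCA at -125.
EGR1: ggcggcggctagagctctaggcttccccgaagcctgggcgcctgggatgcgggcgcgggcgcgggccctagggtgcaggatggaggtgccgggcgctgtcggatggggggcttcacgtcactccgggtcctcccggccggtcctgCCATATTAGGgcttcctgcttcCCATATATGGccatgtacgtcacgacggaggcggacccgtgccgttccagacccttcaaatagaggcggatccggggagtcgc
DUSP1: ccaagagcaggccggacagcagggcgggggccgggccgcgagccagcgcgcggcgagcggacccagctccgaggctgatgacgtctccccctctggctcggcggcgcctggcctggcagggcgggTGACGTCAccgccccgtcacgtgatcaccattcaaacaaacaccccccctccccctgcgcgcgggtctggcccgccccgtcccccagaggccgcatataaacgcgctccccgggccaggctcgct
Of the 66 higher genes, 54 had a promoter in the RefSeq table. A CArG box on either strand was found in 2 of them (3.7%), EGR1 and RND3, against 1.45% of the 9446 tested genes with a promoter. TGACGTCA was found in 4 (7.41% against 3.6%), namely DUSP1, MAFF, PPP1R15A, and ZFP36L1, and the AP-1 site, TGACTCA or TGAGTCA, in 5 (9.26% against 4.01%). The letters are a description of these windows, and binding was not measured.

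Heat-shock genes were higher with mercury in part. Of 34 tested targets of HSF1, 9 were higher (0.535% of all genes were) and none lower, and 27 had a positive LFC, with a median of 0.12. The called members were HSPA1B, HSPA1A, HSPA6, BAG3, IER5, CHORDC1, DNAJB4, DEDD2, and HSPH1. Of these, HSPH1 was abundant, with 256 to 259 CPM with cadmium, and had an LFC of 0.31. The abundant constitutive members HSP90AA1, HSP90AB1, HSPA8, and HSPD1 did not pass (LFC 0.04, -0.07, 0.27, and 0.04). Neither did CRYAB (-0.16) or DNAJB1. HSPA1B, a stress-inducible chaperone of the HSP70 family on chromosome 6 from 31827738 to 31830254, had 46.7, 46.2, and 40.8 CPM with cadmium and 123, 100.0, and 130.4 CPM with mercury (LFC 1.40, standard error 0.16, adjusted p = 5.96e-09). Its near-identical neighbor HSPA1A had 7.03, 10.2, and 5.82 CPM with cadmium and 22.5, 20.8, and 20.5 CPM with mercury (LFC 1.47, standard error 0.25, adjusted p = 6.98e-05). In both genes the mercury libraries were clear of the cadmium libraries. Non-treated cells had 56.9 to 67.3 CPM of HSPA1B, above every cadmium library. Over non-treated cells, the LFC of HSPA1B was 0.95 with mercury and -0.45 with cadmium (adjusted p = 0.000104 and 0.537). For HSPA1A it was 1.59 and 0.12 (adjusted p = 8.09e-05 and 0.956). Near the 3′ end of HSPA1A (the last 400 bases), 6.76% of 50-base stretches also occur in another gene, so that its reads are largely its own.

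The remaining heat-shock members were smaller or less deeply counted. HSPA6, a chaperone that is silent without stress, had 2, 1, and 3 counts with cadmium and 11, 7, and 29 counts with mercury (adjusted p = 0.00121), and its call was lost without mercury replicate 3 (adjusted p = 0.2). BAG3, a co-chaperone that directs clients to autophagy, had 45.4 to 72.8 CPM with cadmium and 92.8 to 113 CPM with mercury (LFC 0.81, adjusted p = 4.46e-05). DEDD2 differed by 1.12 (adjusted p = 0.0245), a call lost in 4 of 6 leave-one-out fits. These were the fits without any 1 of the cadmium libraries or without mercury replicate 3. The LFC of DEDD2 over non-treated cells was 0.63 with mercury (adjusted p = 0.764) and -0.50 with cadmium (adjusted p = 0.706). DNAJB1, the HSP40 partner of HSP70, had 177, 191, and 228 CPM with cadmium and 233, 277, and 283 CPM with mercury, an LFC of 0.41 that did not pass (adjusted p = 0.0936), although it did without cadmium replicate 3 (adjusted p = 0.0444) and in the fits of the 6 or the 12 libraries. The number of called members fell to 5 without cadmium replicate 1 and to 4 without mercury replicate 3.

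The promoter of HSPA1B (chr6:31827488-31827737, plus strand, RefSeq, GRCh38.p14) is shown for its heat-shock element, with inverted GAA units in capitals at -105.
HSPA1B: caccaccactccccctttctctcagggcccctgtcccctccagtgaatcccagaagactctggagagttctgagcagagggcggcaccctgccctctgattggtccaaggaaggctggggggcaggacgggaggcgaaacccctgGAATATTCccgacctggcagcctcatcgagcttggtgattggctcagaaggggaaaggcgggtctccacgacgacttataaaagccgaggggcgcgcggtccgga
GAANNTTC or TTCNNGAA was found in 14 of the 54 promoters of higher genes (25.9%), among them HSPA1A, HSPA1B, HSPA6, DNAJB4, and CHORDC1 of the heat-shock list, and in 3 of the 12 promoters of lower genes (25.0%), against 12.0% of the 9446 promoters.

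Among targets of NRF2, the regulator of antioxidant defense, HMOX1 differed strongly while most of the group did not pass. HMOX1, heme oxygenase, is on chromosome 22 from 35380361 to 35394214 and had 15.7, 22.7, and 20.1 CPM with cadmium and 86.4, 73.6, and 85.4 CPM with mercury (LFC 2.06, standard error 0.17, adjusted p = 2.7e-14). The cadmium libraries lay within the 17.5 to 25.5 CPM of non-treated cells apart from replicate 1, and the arsenic mean was 35.1 CPM. Of 32 tested NRF2 targets, 2 were called, both higher, and 15 had a positive LFC, with a median of -0.01. The second was MAFG, a small MAF partner of NRF2, with 101 to 143 CPM with cadmium and 173 to 214 CPM with mercury (LFC 0.70, adjusted p = 0.000673). The standard targets NQO1 (LFC -0.02) and SQSTM1 (-0.07) were close to 0. GCLM (0.30, standard error 0.10, adjusted p = 0.194) and TXNRD1 (0.49, standard error 0.15, adjusted p = 0.148) had positive values that did not pass, and GCLM was called for mercury over non-treated cells (LFC 0.44, adjusted p = 0.00673).

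Targets of ATF4, the transcription factor of the integrated stress response, gave 6 called members of 36, all higher, with 23 positive and a median of 0.28. Apart from the enzyme CHAC1, the called members were early regulators, and none was an enzyme of amino acid supply. DDIT4, an inhibitor of mTORC1, had 7.59, 4.70, and 4.13 CPM with cadmium and 22.7, 16.8, and 26.7 CPM with mercury (LFC 2.02, standard error 0.25, adjusted p = 3.1e-08). PPP1R15A, which returns eIF2α to its active form, had 48.3, 59.2, and 44.7 CPM with cadmium and 109, 112, and 119 CPM with mercury (LFC 1.16, standard error 0.15, adjusted p = 4.73e-08). Neither gene had overlapping groups. CEBPB, a leucine-zipper transcription factor, differed by 0.63 (adjusted p = 0.00101), and SESN2, which restrains mTORC1, by 0.88 (adjusted p = 0.00379), the latter not called without cadmium replicate 1 (adjusted p = 0.0938). CHAC1, an enzyme that degrades glutathione, had 1.38 to 1.70 CPM with cadmium and 3.74 to 8.17 CPM with mercury (LFC 1.79, adjusted p = 0.0222), and its call was lost without any 1 of the cadmium libraries or without mercury replicate 3 (adjusted p up to 0.35).

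The transcript of ATF4 itself (LFC 0.37) and the amino acid genes PSAT1 (0.27), PHGDH (-0.11), SLC7A11 (0.43), and AARS1 (-0.36) did not pass. SLC38A2, an amino acid transporter not on this list and chosen after its values were seen, was higher with mercury (LFC 0.47, adjusted p = 0.000267). The related list of chaperones of the endoplasmic reticulum and the unfolded protein response had 0 called members of 25 and a median of 0.04.

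The transcripts controlled by MTF1 were among the smaller differences. Of 4 metallothionein genes tested, 1 was higher with mercury, and of 16 zinc transporters, 1. MT1E, on chromosome 16 from 56625475 to 56627112, had 292, 295, and 287 CPM with cadmium and 408, 387, and 380.1 CPM with mercury, above the 189 to 252 CPM of non-treated cells in both (LFC of mercury over cadmium 0.43, standard error 0.10, adjusted p = 0.0214). All mercury libraries were above all cadmium libraries, but the call was kept only without mercury replicate 2 (adjusted p = 0.0479) and lost in the other 5 fits that left out 1 library (adjusted p 0.0591 to 0.146). MT2A, the most abundant metallothionein, had 2998, 3251, and 3149 CPM with cadmium and 3030, 3436, and 3374 CPM with mercury (LFC 0.07, standard error 0.19, adjusted p = 0.941). MT1X had 12.9, 14.4, and 12.6 CPM with cadmium and 14.7, 11.7, and 14.6 CPM with mercury (LFC 0.04, standard error 0.21, adjusted p = 0.972). The groups of both genes overlapped. Non-treated cells had 2591 to 2614 CPM of MT2A and 6.37 to 6.97 CPM of MT1X, below the libraries of both metals. The LFC of MT1X over non-treated cells was 1.03 with mercury (adjusted p = 0.0268) and 0.99 with cadmium (adjusted p = 0.377). For MT2A it was 0.33 and 0.27 (adjusted p = 0.979 and 0.740). Of the 50-base stretches at the 3′ end of MT1X, 34.7% also occur in another gene, so that its count is less certain than those of MT1E (6.19%) and MT2A (6.11%). The fourth, MT1B, had 0 counts in the 6 libraries.

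SLC30A1, which exports zinc across the plasma membrane, had 86.0, 46.2, and 71.4 CPM with cadmium and 109.7, 108, and 116 CPM with mercury. The cadmium libraries spread widely, with replicate 2 inside the non-treated range of 40.5 to 57.5 CPM, while the mercury libraries lay close together and above them. The LFC was 0.71 (standard error 0.13, adjusted p = 0.000193) and ranged from 0.50 to 0.92 with 1 library left out. The importers SLC39A14, which carries zinc, manganese, iron, and cadmium, and SLC39A10 did not pass, with LFCs of 0.31 (adjusted p = 0.536) and -0.34 (adjusted p = 0.699). For SLC39A10, the cadmium values of 18.3 to 31.5 CPM overlapped the mercury values of 16.3 to 26.0 CPM.

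The promoter of SLC30A1 (chr1:211579162-211579411, minus strand, RefSeq, GRCh38.p14) is shown because the gene is a classical MTF1 target. Capitals mark its only match to the core of a metal response element, here on the opposite strand, at -49.
SLC30A1: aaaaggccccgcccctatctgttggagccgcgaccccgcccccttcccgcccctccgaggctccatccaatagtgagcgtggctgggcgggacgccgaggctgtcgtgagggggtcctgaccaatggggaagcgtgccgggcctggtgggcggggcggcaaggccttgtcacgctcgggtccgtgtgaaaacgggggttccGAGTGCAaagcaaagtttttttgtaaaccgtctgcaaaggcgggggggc
This core, TGCACNC or TGCGCNC on either strand, is short and was found in 20 of the 54 promoters of higher genes (37.0%), in 5 of the 12 of lower genes (41.7%), and in 40.5% of the 9446 promoters. MT1E, HMOX1, and H4C3 had no entry in the promoter table.

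Of the other lists, p53 targets gave 1 called member of 21, GADD45A, and glycolysis 1 of 18, SLC2A3. GADD45A, a growth arrest gene that many stresses induce, had 110.2, 113, and 103 CPM with cadmium and 266, 241, and 231 CPM with mercury (LFC 1.18, standard error 0.16, adjusted p = 9.13e-07). The groups lay far apart relative to the range within each. CDKN1A (LFC 0.12) and MDM2 (0.07), the usual markers of active p53, did not pass. SLC2A3, a high-affinity glucose transporter, differed by 0.86 (adjusted p = 0.000932), whereas 6 of the 18 glycolysis genes had a positive LFC and the median was -0.11. The lists of NF-kB targets and cytokines (15 tested, median -0.004), cholesterol synthesis (19 tested, median 0.15), and genes made in the mitochondrion (13 tested, median 0.10) had 0 called members in edgeR at the 1.5 h comparison, and all of these numbers are adjusted over the 12341 genes.

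**Figure D3:**
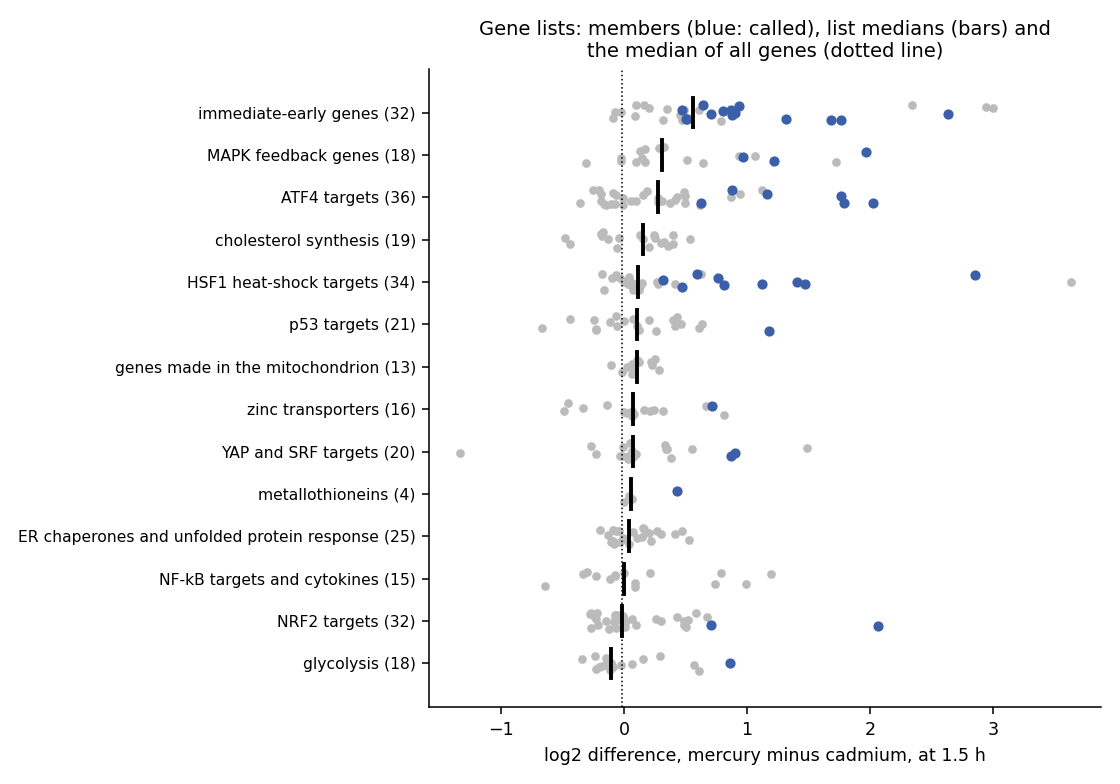
Each point is a tested member of a gene list, placed by its log2 difference, mercury minus cadmium, at 1.5 h (x axis), with the number tested in brackets. Blue points are called, bars are list medians, and the dotted line is the median of all genes. Called members lie to the right in every list that has any, with 14 among the immediate-early genes.

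A few genes with large differences belonged to no list. STARD9, a mitotic kinesin-like protein, had 1.12, 1.11, and 1.46 CPM with cadmium and 8.02, 7.73, and 6.68 CPM with mercury (LFC 2.56, standard error 0.50, adjusted p = 0.00133). For STARD9, it was the cadmium libraries that stood apart, since non-treated cells had 5.58 to 7.56 CPM and arsenic-treated cells a mean of 3.91 CPM. The LFC of cadmium over non-treated cells was -2.43 (adjusted p = 0.0966) and that of mercury 0.13. KDM6B, a histone H3 lysine demethylase, differed by 1.52 (adjusted p = 0.018), ZCCHC8, a subunit of the nuclear exosome targeting complex, by 1.02 (adjusted p = 0.00855), TBK1, an innate immune kinase, by 1.16 (adjusted p = 0.02), and LINC01128, a long noncoding RNA, by 1.12 (adjusted p = 0.00311). The TBK1 and LINC01128 means of non-treated cells, 16.3 and 17.2 CPM, lay nearer to those with mercury than to those with cadmium. With 1 library left out, the KDM6B call was kept only without mercury replicate 2, the TBK1 call was lost without cadmium replicate 2 or 3 or mercury replicate 2, the ZCCHC8 call without cadmium replicate 1 or 3, and the LINC01128 call without cadmium replicate 3 (LFC 0.83, adjusted p = 0.175).

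The genes lower with mercury were dominated by histones. This family was grouped after its values were seen. Replication-dependent histone genes are expressed in S phase, lie in clusters, and give mRNAs that mostly end in a stem-loop rather than a poly(A) tail, so that poly(A)-primed libraries capture only part of them. Of 23 tested, 8 were lower with mercury (0.122% of all genes were), none was higher, and 20 had a negative LFC, with a median of -1.34. Their summed level was 1651, 1772, and 1974 CPM in the cadmium libraries and 581, 596, and 597 CPM in the mercury libraries. The sum in the non-treated libraries, 1596 to 1826 CPM, overlapped that with cadmium, and the arsenic libraries ranged from 1610 to 2658 CPM. In bulk samples such as these, fewer cells of a type (here, in S phase) and less RNA per cell cannot be told apart. The sums cover only the captured part of these mRNAs, and their total level was not measured.

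H4C3, a histone H4 gene on chromosome 6 from 26103933 to 26104337, made up most of the sum, with 1358, 1456, and 1604 CPM with cadmium and 479, 492, and 499 CPM with mercury (LFC -1.59, standard error 0.17, adjusted p = 5.18e-10). H1-2, a linker histone, had 172, 198, and 239 CPM with cadmium and 56.4, 45.9, and 48.5 CPM with mercury (LFC -2.01, standard error 0.19, adjusted p = 5.35e-12). The mercury libraries of both genes lay close together and below all cadmium libraries. The linker histones H1-4 (LFC -1.50, adjusted p = 0.000495) and H1-5 (-1.69, adjusted p = 0.00514) and the core histones H2BC4 (-2.58, adjusted p = 0.00331), H2AC20 (-1.34, adjusted p = 0.0156), H2AC11 (-2.13, adjusted p = 0.0205), and H2BC7 (-2.40, adjusted p = 0.0282) were lower as well, from lower counts. Of these 8, H4C3, H1-2, and H1-4 were called in all 6 fits that left out 1 library, and the number called was 5 without cadmium replicate 1, cadmium replicate 3, or mercury replicate 1, and 4 without mercury replicate 3. Among 3′-end stretches of H2AC20, 28.5% also occur in another gene, against 3.7% or less for H2AC11 and H2BC7 and 5.39% for H2BC4.

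Histone genes that are transcribed outside S phase and carry a poly(A) tail did not pass. Of 7 tested, 0 were called in edgeR and the median LFC was -0.001. H2AZ1 had 1188 to 1289 CPM with cadmium and 1198 to 1282 CPM with mercury, with overlapping groups, and H3-3B had an LFC of -0.02. The lowest of the 7 was H1-10, with 134 to 168 CPM with cadmium and 97.9 to 107 CPM with mercury (LFC -0.54, adjusted p = 0.0936).

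**Figure D4:**
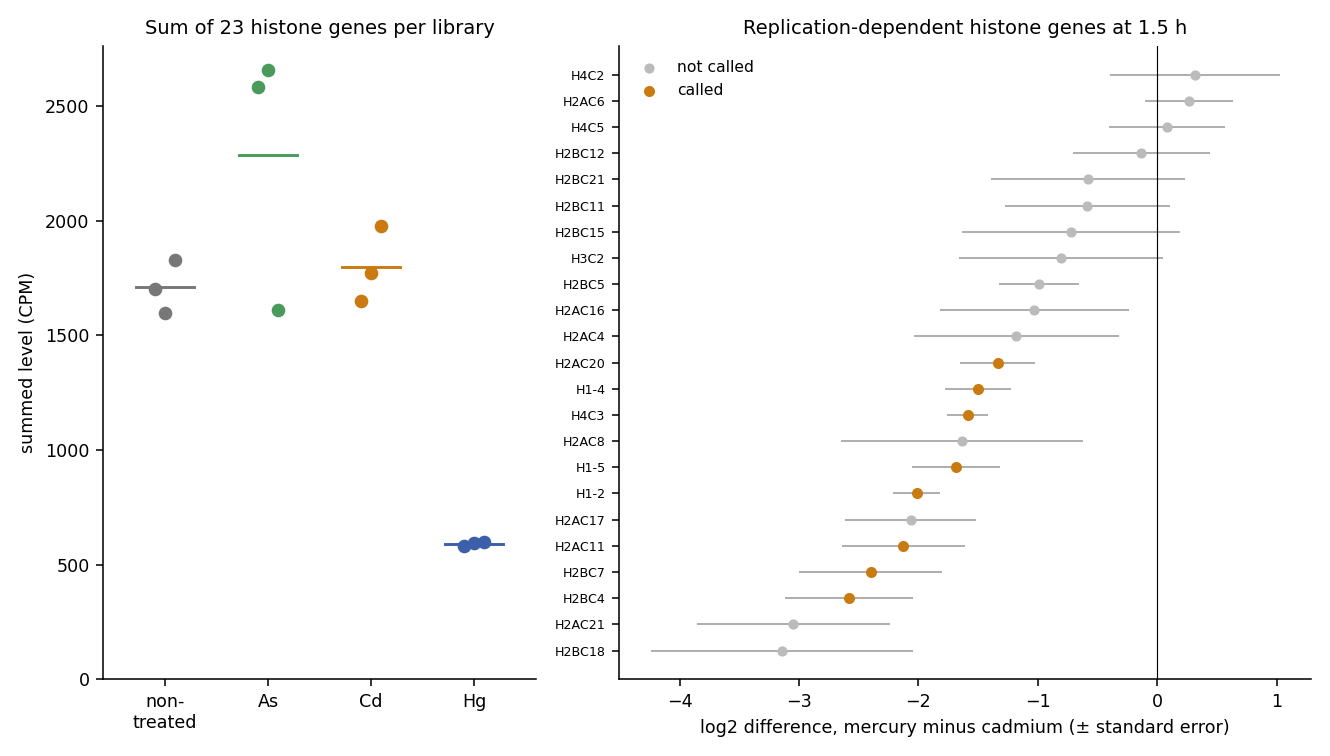
Left, the summed level of 23 replication-dependent histone genes (y axis, CPM, from 0) in each library of 1.5 h, with lines for group means. Right, the log2 difference of each gene, mercury minus cadmium, with its standard error. The 3 mercury libraries, at 581 to 597 CPM, lie below all 9 others, and the 8 called genes (orange) are all lower.

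The lower genes outside the histones were few. SNHG25, a host gene of small nucleolar RNA, had 81.5, 111, and 88.3 CPM with cadmium and 46.0, 51.2, and 43.3 CPM with mercury (LFC -1.0, standard error 0.22, adjusted p = 0.00487), with non-treated cells in between at 63.7 to 72.9 CPM. Its call was lost without cadmium replicate 2 or mercury replicate 3. ENSG00000268649, a gene given only by its identifier, had 9, 15, and 6 counts with cadmium and 2, 0, and 0 counts with mercury (adjusted p = 0.0418), a call lost in 4 of 6 leave-one-out fits (kept only without cadmium replicate 3 or mercury replicate 1) and in DESeq2 and with the replicate block (adjusted p = 0.0505). ID1, an inhibitor of differentiation that responds to BMP signals and was named after its values were seen, had 709, 622, and 627 CPM with cadmium and 352, 303, and 342 CPM with mercury (LFC -0.97, standard error 0.09, adjusted p = 7.98e-13). The mercury libraries were below all others, with non-treated cells at 645 to 712 CPM. Its relative ID2 differed by -0.68 (adjusted p = 0.0106), and TXNIP, an inhibitor of thioredoxin and of glucose uptake, by -0.69 (adjusted p = 0.0091), both also named after their values were seen. The ID2 call was lost without cadmium replicate 3 or mercury replicate 2, and that of TXNIP in 4 of 6 such fits (without cadmium replicate 2 or 3 or mercury replicate 1 or 3).

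The libraries of later time points, which did not enter the contrast of 1.5 h, show how the differences continued. At 3 h, 33 of the 66 higher genes were again higher with mercury, where 1.29% of all genes were, and 4 of the 15 lower genes were again lower, against 0.494% of all genes. At 6 h, 15 of the 66 and 4 of the 15 were called in the same direction, against 2.14% and 1.64% of all genes. At 12 h, 15 and 1 were, against 1.81% and 1.48%, with 9 in all without mercury 12 h replicate 2. At 24 h, 48 and 9 were, against 10.3% and 9.7% of all genes. Calls in the opposite direction were fewer. In order of time, 1, 4, 2, and 3 of the 66 genes were called lower with mercury. The 4 genes of 6 h were MT1E, SLC30A1, CCN1 (LFC -0.54, adjusted p = 0.0197), and PCF11 (LFC -0.65, adjusted p = 0.00773). Of the 15 lower genes, only SNHG25 was called higher later, in the 6 h comparison (LFC 0.81, adjusted p = 0.0230). The median LFC of the 66 genes was 0.48 at 3 h, dropped to 0.14 (6 h) and 0.18 (12 h), and was 0.86 at 24 h.

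Between these time points the genes took different courses. At all 4 later time points, 10 of the 81 genes were called in the same direction, namely HMOX1, HSPA1B, DDIT4, PPP1R15A, ATF3, MAFG, CEBPB, SESN2, and CHAC1, which were higher, and ID1, which was lower. The LFC of HMOX1 was 2.03 at 3 h, dipped to 0.74 (6 h) and 0.63 (12 h), and was 2.41 at 24 h. Another 14 genes were called at no later time point, among them JUN, MYC, STARD9, TBK1, LINC01128, and ID2. JUN had LFCs of 0.13, -0.11, -0.21, and 0.11 at the 4 later time points. For the 23 histones, the median LFC at 3 h was -0.52, with 2 called. At 24 h, H1-2 (-1.27), H4C3 (-0.63), H1-4 (-1.26), H1-5 (-1.15), and H2AC20 (-1.69) were again lower with mercury, each with an adjusted p under 0.05.

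The change of the difference from 1.5 to 3 h was tested as an interaction in the same model. It was called for 10 genes in the positive direction (0.081%) and 10 in the negative (0.081%). MT1E turned over completely. Its LFC of mercury over cadmium went from 0.43 at 1.5 h to -1.21 at 3 h (change -1.64, adjusted p = 1.02e-12), and was -2.16, -3.66, and -3.52 at 6, 12, and 24 h. SLC30A1 went from 0.71 to -0.30 (change -1.01, adjusted p = 0.000485) and was -1.33 at 6 h and -1.52 at 12 h. MT1X and MT2A, which did not differ detectably at 1.5 h, had LFCs of -1.88 and -1.16 at 3 h (changes of -1.93 and -1.23, adjusted p = 1.53e-05 and 0.0159). MT1E, MT1X, and MT2A were called lower with mercury at each time point from 3 h on.

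Some of the early signaling genes had a smaller difference at 3 h. EGR1 fell to an LFC of 1.28 (change -1.35, adjusted p = 0.0142), JUN to 0.13 (change -0.75, adjusted p = 4.2e-05), and CCN1 to -0.32 (change -1.19, adjusted p = 0.00065). Other members of these lists were still higher with mercury at 3 h, with LFCs of 2.17 for ATF3, 1.61 for MAFF, 1.43 for ERRFI1, 1.16 for DUSP5, and 0.75 for JUNB, as was HBEGF at 1.50, and no change from 1.5 h was called for any of them. H1-2 moved from -2.01 to -0.88 (change 1.13, adjusted p = 0.0432). By contrast, SESN2 widened from 0.88 to 2.19 (change 1.31, adjusted p = 0.00673) and TXNIP from -0.69 to -1.84 (change -1.15, adjusted p = 0.0137). For HMOX1, at 2.06 and 2.03, the change was -0.04 (adjusted p = 0.989). The number of genes with a change was 6 without cadmium 1.5 h replicate 3, and 10 to 13 without cadmium 1.5 h replicate 1, mercury 1.5 h replicate 1 or 2, or cadmium 3 h replicate 1.

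**Figure D5:**
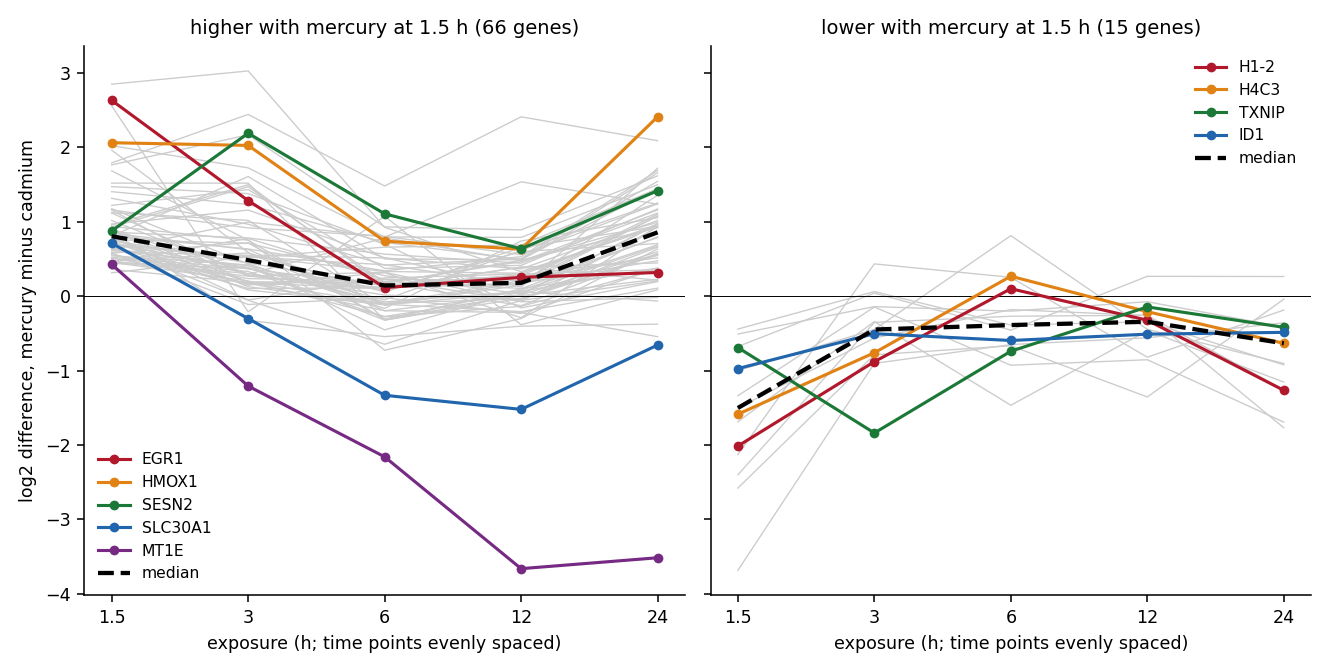
Log2 difference, mercury minus cadmium (y axis), at each of the sampled times from 1.5 to 24 h (x axis, evenly spaced) for the 66 genes higher (left) and the 15 genes lower (right) with mercury at 1.5 h, with gray lines for genes, colored lines for named genes, and dashed lines for medians. MT1E and SLC30A1 cross 0 between 1.5 and 3 h, HMOX1 stays above 0 throughout, and the median of the higher genes dips to 0.14 at 6 h before reaching 0.86 at 24 h.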

How the data were processed

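The authors prepared 3′-end libraries with the QuantSeq 3′ mRNA FWD kit, sequenced them single-end, aligned reads to GRCh38 with STAR 2.7.9a, and deposited raw counts per gene from strand-specific, union-mode counting. QuantSeq libraries are primed at the poly(A) tail, so that transcripts without one are undercounted. Samples were grouped by metal and time from their titles. Members and gene lists were chosen with earlier results of these data known.

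From the deposited counts, edgeR 4.0.16 (R 4.3.3, limma 3.58.1) fitted quasi-likelihood models with TMM scaling to all 60 libraries in 20 groups of 3. filterByExpr (minimum count 10, minimum total 15) kept 12341 of 62703 genes and 99.76% of the counts of the 6 libraries compared. The 92 spike-in sequences had 0 counts. Contrasts were mercury minus cadmium at each time, each metal minus non-treated cells at 1.5 h, and the change of the mercury-cadmium difference from 1.5 to 3 h. P-values were adjusted by Benjamini-Hochberg over all genes tested, and a gene was called at an adjusted p under 0.05. Log2 fold changes carry standard errors from the model. CPM used TMM-scaled library sizes, with no prior count. Depth was 3552240 to 4140309 counts in the 6 libraries and 2215276 to 4404609 in the 60, which limits genes near the filter. No pair of replicates agreed within sampling noise (chi-square per degree of freedom 2.27 to 3.68).

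Named genes were all genes called with an absolute log2 fold change above 1 (at most 30), up to 4 called members of each list by adjusted p, and 13 genes of metal and stress response whatever their values. Others are marked as chosen after their values were seen. Genes with a mean under 10 counts are given by counts. Shared sequence was searched as 50-base stretches in the last 400 bases of transcripts, and motifs in 250 upstream bases of RefSeq promoters (GRCh38.p14).

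Alternatives were RLE size factors, DESeq2 1.42.0, no or a stricter filter (minimum count 30), fits of the 6 or 12 libraries of 1.5 h, a replicate block, and leaving out each library. Leaving out libraries of 3 h and later or non-treated libraries, and the histone counts, were added after seeing the data. On simulated data of 11853 genes for mercury against cadmium at 1.5 h, 157 of 200 changed genes and 10 unchanged genes were called, and with no change simulated between cadmium and non-treated cells, 0 were.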

Additional observations from a re-analysis of the deposited data

Results flagged for a closer look

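The difference between mercury and cadmium itself changed between 1.5 and 3 h for 20 genes, by an interaction test in edgeR with adjustment over all 12341 genes. Of the genes named above, the log2 difference moved toward cadmium for MT1X (change -1.93), MT1E (-1.64), EGR1 (-1.35), MT2A (-1.23), CCN1 (-1.19), SLC30A1 (-1.01), and JUN (-0.751). TXNIP, already lower with mercury, moved further down (-1.15). It moved toward mercury for SESN2 (1.31) and H1-2 (1.13), the latter from a more to a less negative value. With 3 libraries a group, no test for an outlying library was run.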

How the results depend on the processing

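None of the 48 genes named by the naming rules reversed its direction in any alternative where it was called. The alternatives refit the same libraries and most of these genes were chosen because they were called. A reversal was therefore unlikely in advance. All 81 called genes kept their sign with 1 library left out, which follows from groups that did not overlap. MT1X, which was not called, ranged from -0.01 to 0.15 with 1 library left out. The 66 genes higher with mercury became 124 without a filter, 232 in the fit of the 6 libraries, and 123 in that of the 12 libraries of 1.5 h, and the 15 lower genes became 23 with DESeq2, 23 without a filter, 109, and 31. Beyond a log2 fold change of 1, the 20 higher genes became 38, 42, and 33 in the last 3 settings. Cadmium against non-treated cells changed from 0 genes to 4 with DESeq2, 66 without a filter, and 42 with 12 libraries, and the 20 genes with a change from 1.5 to 3 h became 48 without a filter. The cause was not tested. Of the 81 called genes, 74 to 81 were also called under each other setting with all of the 6 libraries. Among the 81, 32 were called in every setting that tested them.

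With the replicate block, 67 genes were higher and 17 lower with mercury, 20 and 10 beyond a log2 fold change of 1, and 79 of the 81 were called again. Same-numbered libraries did not deviate together (correlations 0.0282, 0.00346, and 0.00728), and the numbers were treated as names only.

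With 1 library left out, 40 to 57 genes were higher and 7 to 12 lower with mercury, and beyond a log2 fold change of 1, 14 to 22 and 5 to 9. Lower genes beyond that threshold numbered 6 without cadmium replicate 1 and 5 without mercury replicate 3. Mercury against non-treated cells gave 45 to 58 genes, with 45 without non-treated replicate 3, cadmium 0 to 1, with 1 without cadmium replicate 2, and the change from 1.5 to 3 h 6 to 17. Called genes with the same direction later numbered 26 to 33 at 3 h, 14 to 20 at 6 h, 9 to 15 at 12 h, and 49 to 56 at 24 h. Called members numbered 12 to 14 for immediate-early genes, 4 to 9 for heat-shock genes, 5 to 6 for ATF4 targets, and 4 to 8 for histones, and ATF4 targets reached 13 in the fit of the 6 libraries. For the 48 genes named by the naming rules, calls were weaker in 58 cases and stronger in 4, against 552 without change. Genes chosen after their values were seen are not in these counts. Depth limits genes of a few counts per library, such as HSPA6, FOS, and STARD9.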

Other observations

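Further genes that were higher with mercury than with cadmium at 1.5 h, named here after their values were seen, had small differences. MCL1, a short-lived survival protein of the BCL2 family, had 302, 293, and 266 CPM with cadmium and 435, 443, and 463 CPM with mercury (log2 fold change 0.64, edgeR adjusted p = 9.03e-06). KLF6, a zinc-finger transcription factor, had 251, 252, and 256 CPM with cadmium and 326, 363, and 395 CPM with mercury (0.51). At 24 h, KLF6 was called lower with mercury (-0.54, edgeR adjusted p = 2.78e-06). SLC38A2, a transporter of small neutral amino acids, had 177 to 194 CPM with cadmium and 249 to 267 CPM with mercury (0.47). None of these groups overlapped, and the calls were kept without any 1 of the 6 libraries.

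CLK1, a kinase of splicing factors, had 26.4, 23.8, and 18.2 CPM with cadmium and 44.1, 40.5, and 41.6 CPM with mercury (0.89), and its call was lost without cadmium replicate 3. TRIB1, a pseudokinase that restrains MAP kinase signaling, had 32.1 to 36.5 CPM with cadmium and 54.3 to 62.9 CPM with mercury (0.75), with a call lost without cadmium replicate 2. NAMPT, the rate-limiting enzyme of NAD salvage, had 25.3 to 28.5 CPM with cadmium and 41.8 to 50.1 CPM with mercury (0.73). Its non-treated libraries, at 37.9 to 46.6 CPM, lay nearer to mercury than to cadmium, and the call was lost without cadmium replicate 1 or 3 or mercury replicate 2.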
